A study of Rattus norvegicus with 6 samples.

Results

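The transcripts of arginine vasopressin (Avp, ENSRNOG00000021229) and oxytocin (Oxt, ENSRNOG00000021225) were followed in RNA sequencing of the rat median eminence. The members are the 2 rows of a count table of 34510 rows that carry these Ensembl identifiers. The gene names come with the selection of these identifiers, because neither the table nor the RefSeq gene table used here pairs an Ensembl identifier with a symbol, so the pairing was not checked against the data. Both rows passed the filter on low counts, which kept 17133 rows.

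The median eminence is a part of the floor of the hypothalamus, and axons pass through it toward the pituitary. Libraries came from rats labelled S-D, 3 labelled Control and 3 collected 1 day after an operation that the labels call PEL and do not spell out. The labels give no sex or age and do not say whether controls had a sham operation. They also do not say that each library is a separate animal. The p-values therefore judge the difference between groups against the variation among these libraries, which may be technical. They may not carry over to animals. The series title places the recovery of body fluid metabolism among the study's subjects. The defining markers of the tissue could not be looked up without symbols.

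Vasopressin and oxytocin are small peptide hormones made as larger precursors by magnocellular neurons of the supraoptic and paraventricular nuclei. Their axons cross the internal zone of the median eminence and end in the posterior pituitary, where the hormones enter the blood. Vasopressin makes the kidney retain water, and oxytocin acts on the uterus and the mammary gland and, in rats, also promotes sodium excretion. Both mRNAs are made in the cell bodies and are also known from the axons of these neurons. In bulk tissue, fewer cells or axons holding a transcript and less of it in each cannot be told apart.

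In the RefSeq annotation of GRCr8, Avp and Oxt lie side by side on chromosome 3, on opposite strands, with 0 annotated genes between them. The 250 bases before each start site are shown because the reads of these neighbouring genes are compared in every library below. Both members matched the RefSeq promoter table by symbol. The stretches are chr3:138248523-138248772 on the minus strand for Avp and chr3:138235504-138235753 on the plus strand for Oxt. They are written 5′ to 3′ along each gene, and capitals mark GGTCA, the half-site of several nuclear receptors, CANNTG, the E-box read by basic helix-loop-helix factors, and CATAAA, each searched on both strands.
Avp: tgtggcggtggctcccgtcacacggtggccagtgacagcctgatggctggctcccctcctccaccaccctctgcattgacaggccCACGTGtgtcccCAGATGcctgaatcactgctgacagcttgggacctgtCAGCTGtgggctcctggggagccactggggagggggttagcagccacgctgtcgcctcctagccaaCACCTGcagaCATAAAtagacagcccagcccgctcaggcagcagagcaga
Oxt: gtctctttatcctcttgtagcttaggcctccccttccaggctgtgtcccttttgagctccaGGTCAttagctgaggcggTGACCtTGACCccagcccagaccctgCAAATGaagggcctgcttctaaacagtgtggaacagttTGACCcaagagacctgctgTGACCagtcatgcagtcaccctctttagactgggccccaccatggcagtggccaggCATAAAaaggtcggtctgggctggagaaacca

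Upstream of Oxt, GGTCA or its reverse TGACC was found at 5 places, starting 189, 171, 165, 107 and 88 bases before the start site. The matches at 171 and 165 bases are direct repeats with 1 base between them. The Avp stretch held 0 matches to GGTCA. Among 33465 RefSeq stretches of the same length, 35.4% held at least 1 match and 0.051% held at least 5. The Avp stretch had 4 E-boxes, at 165, 153, 116 and 50 bases, and the Oxt stretch had 1, at 145 bases. An E-box was present in 65.5% of all stretches, and at least 4 in 3.20%. CATAAA occurred once in each, 40 bases before the Avp start and 32 bases before the Oxt start, and in 11.4% of all stretches. The AP-1 site TGACTCA (4.05% of stretches), the cyclic AMP response element TGACGTCA (1.59%) and the TATA box TATAAA (12.9%) had 0 matches in either gene. The half-site TGACG (18.2% of stretches) had 1 match in Avp, 235 bases before the start, and 0 in Oxt. No motif match overlapped another. These motifs were chosen with the sequences in view, and a match describes letters only.

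The Avp means of the groups differed by less than the spread between libraries, while Oxt lay above every control in 2 of the 3 PEL libraries and at the control level in the other. Neither gene passed edgeR's quasi-likelihood test of the difference between groups, while the DESeq2 Wald test, which called more rows in all, called Oxt. The plot of reads by library shows both genes.

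**Figure D1:**
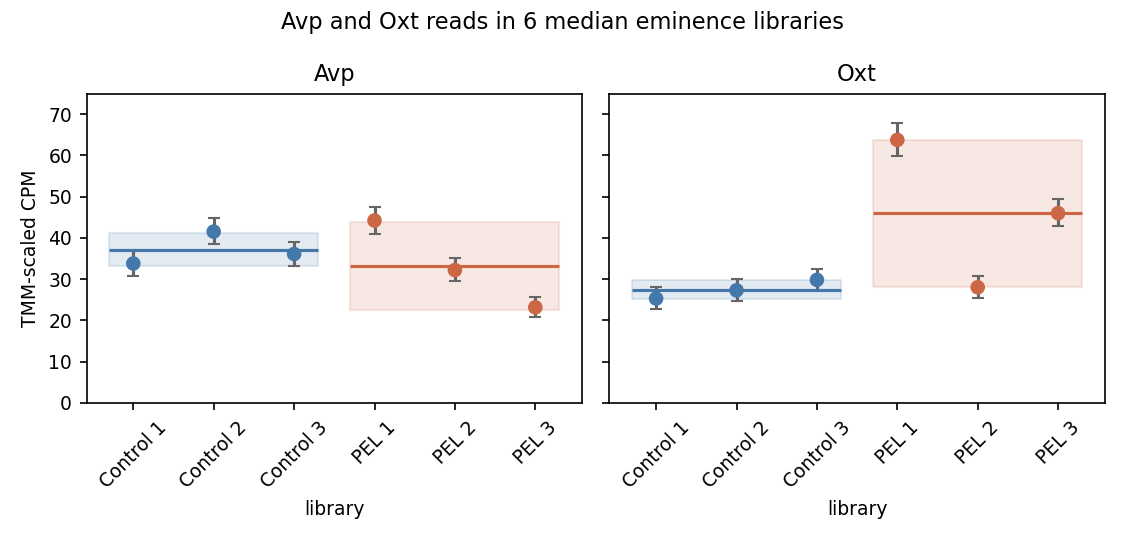
Avp (left) and Oxt (right) as TMM-scaled CPM in the 3 Control (blue) and 3 PEL (red) libraries. Bars are 95% counting intervals, lines are group means and shaded bands are ± 1 SD. PEL 1 is the highest library for both genes, at 44.2 CPM for Avp and 63.8 CPM for Oxt.

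Avp, the water-retaining hormone, had 466, 665 and 609 reads in Control replicates 1 to 3 and 713, 525 and 394 reads in PEL replicates 1 to 3. CPM are reads scaled to the library's total, here with totals adjusted by TMM, the trimmed mean of M values over all rows. On this scale the libraries had 33.8, 41.5 and 36.1 CPM in controls and 44.2, 32.2 and 23.2 CPM after PEL. The groups overlapped: PEL 1 lay above every control, and PEL 2 and PEL 3 lay below every control. The 95% counting intervals of PEL 1 (41.0 to 47.6 CPM) and PEL 3 (20.9 to 25.6 CPM) were far apart.

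Avp averaged 37.1 ± 3.97 CPM in the Control group and 33.2 ± 10.6 CPM in the PEL group (SD, n = 3 each). The log2 fold change was -0.16 (SE 0.21, 95% interval -0.65 to 0.33, edgeR quasi-likelihood adjusted p = 0.682). On the linear scale the interval runs from 0.636 to 1.25 times the control level. A change within that range could not be told from none with these libraries, and the p does not show that the levels were equal. The direction itself rested on PEL 3, and without that library the log2 fold change was 0.04 (adjusted p = 0.891). Without PEL 1 it was -0.42 (adjusted p = 0.228).

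Oxt had 349, 437 and 503 reads in Control replicates 1 to 3 and 1028, 457 and 782 reads in PEL replicates 1 to 3. These were 25.3, 27.3 and 29.8 CPM in controls and 63.8, 28.0 and 46.0 CPM after PEL. PEL 1 and PEL 3 lay above every control, with counting intervals of 59.9 to 67.8 and 42.8 to 49.3 CPM. PEL 2, at 28.0 CPM (counting interval 25.5 to 30.7), lay between the lowest and highest control values of 25.3 and 29.8 CPM, so the groups overlapped. Against the control mean, Oxt stood at 2.32-fold in PEL 1, 1.02-fold in PEL 2 and 1.67-fold in PEL 3.

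Oxt averaged 27.5 ± 2.26 CPM in the Control group and 45.9 ± 17.9 CPM in the PEL group (SD, n = 3 each). The log2 fold change was 0.74 (SE 0.26, 95% interval 0.14 to 1.33), a 1.67-fold difference. The unadjusted edgeR p was 0.0210 and the adjusted p was 0.142, above the threshold of 0.05, so Oxt was not called. Of the 17133 rows tested, 14.7% had an unadjusted p as low as that of Oxt or lower. The DESeq2 Wald test did call it, with a log2 fold change of 0.74 and an adjusted p of 0.0234. That test called more rows in all, 1636 of 17985 tested, against 906 of 17133 by edgeR. Without PEL 2, the library at the control level, the log2 fold change was 1.00 and the edgeR adjusted p was 0.0147. Without PEL 1 it was 0.43, with an adjusted p of 0.308. Of the 6 fits that left out 1 library, 3 had a 95% interval for Oxt that held 0. These were the fits without Control 1, Control 2 and PEL 1.

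Among all rows, 906 were called, 5.29% of those tested, with 4.21% higher and 1.07% lower after PEL. Of the Avp and Oxt rows, 0 of 2 were called by edgeR. The values of the 2 groups did not overlap in 30.0% of tested rows, and in 0 of the 2 members. A log2 fold change as high as that of Oxt, or higher, was seen in 6.09% of tested rows, and in 2.55% of the 5775 rows whose mean lay within a factor of 2 of the Oxt mean. For Avp, 27.1% of all tested rows had a log2 fold change as low or lower.

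**Figure D2:**
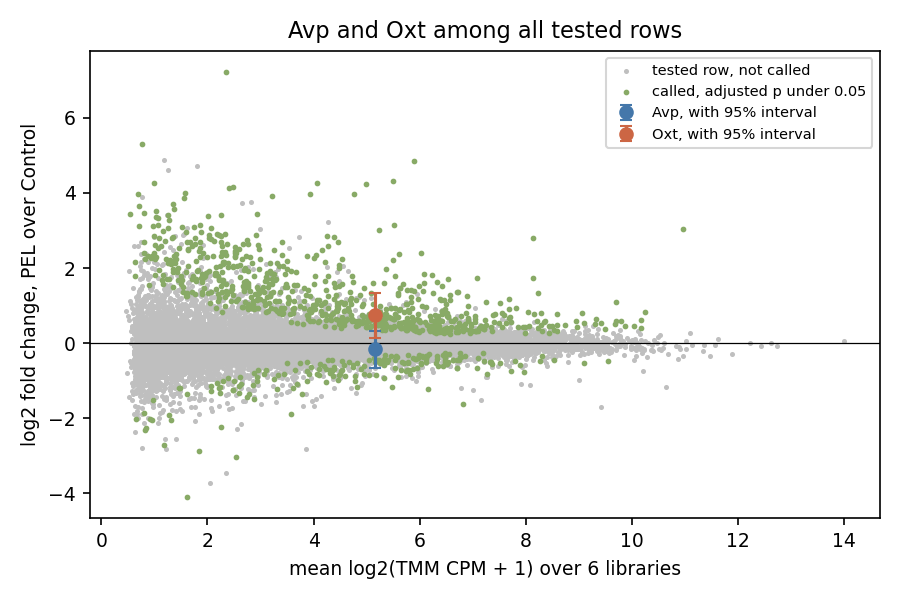
Each point is 1 tested row, by its mean log2(TMM CPM + 1) over 6 libraries (horizontal) and its log2 fold change of PEL over Control (vertical), with called rows in green. Oxt (red) lies at 0.74 and Avp (blue) at -0.16, with bars for their 95% intervals.

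The spread among libraries was wider after PEL than in controls for both hormones. For Oxt the coefficient of variation (SD over mean) was 8.23% in controls and 38.9% after PEL, where counting error alone gives 4.82% and 3.64%. For Avp it was 10.7% in controls and 31.8% after PEL, where counting error gives 4.15% and 4.29%. After PEL the highest library was 2.27 times the lowest for Oxt and 1.91 times for Avp, against 1.18 and 1.23 times in controls. The difference in spread between the groups was not tested.

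Rows of a similar level varied less. Among 5774 other rows within a factor of 2 of the Oxt mean, the median coefficient of variation after PEL was 9.19%, and 97.9% of them varied less than Oxt. In controls the median was 5.63%, and 72.5% varied less. For Avp, 96.5% of 5760 such rows varied less after PEL, where their median was 9.34%, and 84.3% varied less in controls, where it was 5.73%. At both levels the median was higher after PEL than in controls, so a wider spread after PEL was not particular to the 2 hormones.

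The order of the PEL libraries was not that of the whole table. The first principal component of log2 CPM, which carried 54.1% of the variance, placed the controls between -26.1 and -23.4, PEL 3 at 4.60, PEL 1 at 25.7 and PEL 2 at 44.0. PEL 2, farthest from the controls over all rows, had the lowest Oxt of the PEL group and an Avp level between those of PEL 1 and PEL 3. PEL 3, nearest to the controls over all rows, had the lowest Avp of the 6 libraries and an Oxt level of 1.67 times the control mean. What part tissue sampling has in these levels was not tested.

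The balance between the hormones can be read within each library, where library size and scaling cancel. In every control library Avp had more reads than Oxt, and in PEL 1 and PEL 3 it had fewer. The reads are not corrected for transcript length, so the ratio is compared between libraries and does not say which mRNA was more abundant.

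The ratio of Avp to Oxt reads was 1.34, 1.52 and 1.21 in Control replicates 1 to 3, with 95% exact counting intervals that spanned 1.07, the lower bound of replicate 3, to 1.72, the upper bound of replicate 2. The ratio was 0.694 (counting interval 0.630 to 0.764), 1.15 (1.01 to 1.31) and 0.504 (0.445 to 0.569) in PEL replicates 1 to 3. All 3 PEL ratios lay below all 3 control ratios, although the counting interval of PEL 2 overlapped those of Control 1 and Control 3. As a share of the reads of both genes, Avp made up 54.8% to 60.3% in controls and 33.5% to 53.5% after PEL.

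**Figure D3:**
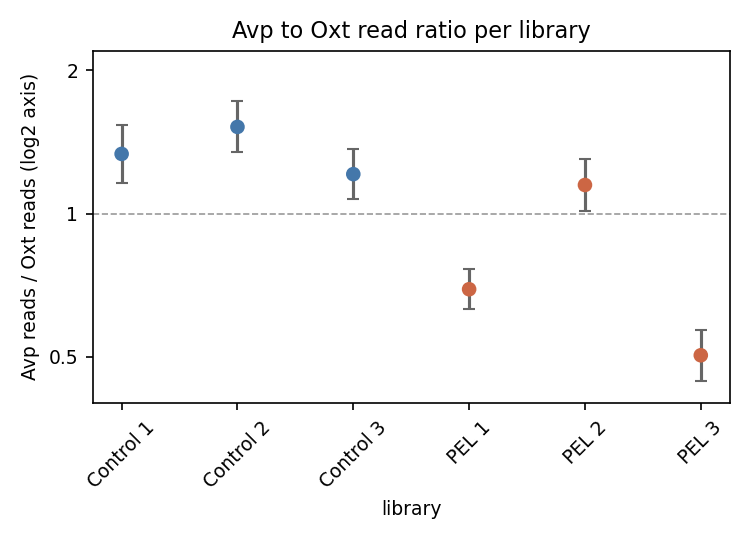
Avp reads divided by Oxt reads in each library, on a log2 axis, with 95% exact counting intervals; the dashed line marks equal reads. The Control libraries (blue) lie between 1.21 and 1.52, and the PEL libraries (red) between 0.504 and 1.15.

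The log2 ratio averaged 0.43 ± 0.17 over the control libraries and -0.44 ± 0.60 over the PEL libraries (SD, n = 3 each), a difference of -0.87, or a 1.83-fold lower ratio. By an exact permutation test, two-sided, p was 0.1, which is the lowest value possible with 3 libraries against 3, so this design could not pass 0.05. The difference was -0.60 without PEL 3 and -1.19 without PEL 2. Separation of this kind was common for Oxt: the read ratio of a tested row to Oxt did not overlap between groups in 35.7% of rows. The ratio of a tested row to Avp did not overlap in 10.8% of rows.

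Together the 2 hormones took 59.2, 69.1 and 66.4 CPM of the assigned reads, without TMM scaling, in Control replicates 1 to 3 and 105.7, 61.2 and 68.6 in PEL replicates 1 to 3. PEL 1 stood above the other libraries, and PEL 2 and PEL 3 lay within the control range. The means were 64.9 ± 5.10 CPM in controls and 78.5 ± 23.9 CPM after PEL (SD, n = 3 each; exact two-sided permutation p = 0.5). Without PEL 1 the difference went from 13.6 to -0.044 CPM.

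The row whose pattern was most like that of Avp was ENSRNOG00000021173, with a Pearson correlation of 0.999 over the 6 libraries, the highest among 12988 rows with a mean of at least 5 CPM. It had 46.4, 48.0 and 46.8 CPM in Control replicates 1 to 3 and 48.7, 45.9 and 42.9 CPM in PEL replicates 1 to 3, a narrower range than Avp. For Oxt it was ENSRNOG00000011222, with a correlation of 0.995. That row had 233, 231 and 240 CPM in Control replicates 1 to 3 and 292, 237 and 268 CPM in PEL replicates 1 to 3, with PEL 1 and PEL 3 highest as for Oxt. Neither row was called (edgeR adjusted p = 0.792 and 0.250). A correlation of at least 0.9 was reached by 67 rows for Avp and by 189 for Oxt. With 6 libraries that fall into 2 groups and so many rows searched, high values are found for many patterns, and these are descriptions only.

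The estimates for both hormones changed little while all 6 libraries were used. Over 11 alternatives in scaling, filter, tool, rows kept or a replicate block, the log2 fold change of Avp ran from -0.22 to -0.15 and that of Oxt from 0.66 to 0.75. Leaving out 1 library moved Avp between -0.42 and 0.04 and Oxt between 0.43 and 1.00.

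**Figure D4:**
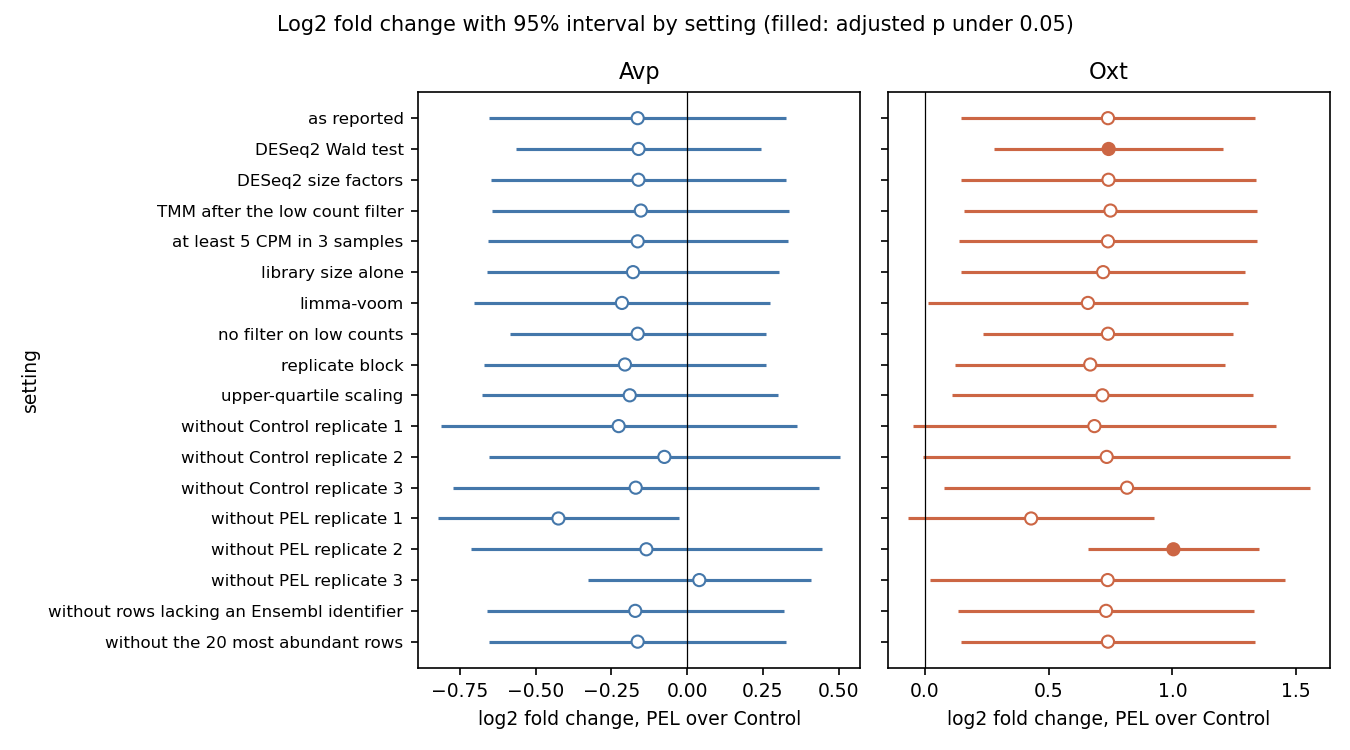
Log2 fold change of PEL over Control for Avp (left) and Oxt (right) under each setting, with 95% intervals; the horizontal axes of the panels differ. Filled points have an adjusted p under 0.05, seen for Oxt with the DESeq2 Wald test (0.0234) and without PEL replicate 2 (0.0147), and for Avp in none of the settings shown.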

How the data were processed

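RNA from 6 median eminence samples was sequenced on an Illumina HiSeq platform after Trizol extraction, per the labels' protocols. The authors deposited raw read counts per gene, with no normalization. HISAT2 2.0.5, featureCounts 1.5.0-p3 and DESeq2 1.16.1 are named in the submitters' processing notes. The genome build, annotation, strandedness and filters of the counting were not given in the sources used here. Reads antisense to either gene may therefore be counted with it.

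Libraries held 13756297 to 17144108 assigned reads. TMM factors were computed over all 34510 rows, filterByExpr (minimum count 10) kept 17133, and edgeR 4.0.16 in R 4.3.3 tested PEL against Control by quasi-likelihood F test, two-sided, with Benjamini-Hochberg adjustment over all rows tested and a threshold of 0.05. This follows the selection rule, with TMM before the filter. Each SE was obtained from the log2 fold change and its F statistic, and 95% intervals use the fit's degrees of freedom. Other tools were DESeq2 1.42.0, limma 3.58.1, matplotlib 3.10.9 and scipy 1.17.1. The edgeR step was also run on simulated data with known changes. Each simulated row had the same dispersion in both groups, so that run does not cover the unequal spread of Avp and Oxt. Counting intervals are exact Clopper-Pearson intervals, on CPM rescaled by TMM. They treat each read as independent and leave out variation between libraries. PCR duplicates are not independent molecules, so the intervals may be too narrow even for counting error. Pairs of libraries of a group differed by more than counting error, with a chi-square per degree of freedom of 4.50 to 7.83 in controls and 15.7 to 24.1 after PEL. Each library was counted as 1 replicate. These values do not show that the libraries came from separate animals, because technical variation can also exceed counting error.

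Named genes were the 2 members and the row most correlated with each on log2(CPM + 1). Lists of receptors, precursor-processing enzymes, magnocellular genes, other hypothalamic hormones and cell type markers need symbols; 0 Ensembl identifiers are in the RefSeq table of 47357 genes, so they were not analysed here. The members and lists were chosen with earlier results of these data known. Promoter sequences are from RefSeq, GRCr8, cut to the 250 bases before the start site. Alternatives were other scalings, filters and tools, a block for the replicate number, and each library left out in turn.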

Additional observations from a re-analysis of the deposited data

How the results depend on the processing

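The difference in Oxt kept its direction in all 17 alternatives and passed the threshold in 2: the DESeq2 Wald test (0.74, adjusted p = 0.0234) and the fit without PEL replicate 2 (1.00, adjusted p = 0.0147). Elsewhere its adjusted p lay between 0.107 and 0.345. Leaving out 1 library gave 0.43 to 1.00 for Oxt, -0.42 to 0.04 for Avp (0.040 without PEL replicate 3, the 1 alternative of 17 that turned its direction), -1.19 to -0.60 for the log2 read ratio and -0.044 to 22.2 CPM for the pair (-0.044 without PEL replicate 1). The adjusted p of Avp lay between 0.228 and 0.904. The 95% interval of Avp held 0 in 16 of the 17 alternatives, all but the fit without PEL replicate 1. With the ratio on a linear scale the difference was -0.57 (exact permutation p = 0.1). Rows called numbered 906 of 17133 as reported, 1636 of 17985 with the DESeq2 Wald test and 544 of 17133 with a replicate block. Without 1 library they numbered 173 to 2092. They were 173, 187 and 246 without Control replicates 1 to 3, and 251, 691 and 2092 without PEL replicates 1 to 3. The cause was not tested. Under 3 other scalings and with TMM after the filter, 820 to 930 rows were called. Same-numbered samples did not deviate together (correlations 0.004, -0.083 and -0.052), and no control sample correlated best with the PEL sample of its own number. Under the replicate block Oxt was 0.67 (adjusted p = 0.180) and Avp -0.21 (adjusted p = 0.602), neither called. With 3 libraries per group, edgeR's quasi-likelihood test did not call a 1.67-fold difference at the spread Oxt showed, and the DESeq2 Wald test did.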
